A study of Mus musculus with 9 samples.

Results

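The Notch receptors, ligands and target genes were followed in primary mouse skin fibroblasts exposed to medium that melanoma cells had conditioned. The set held 10 of the 55401 genes in the deposited table: the receptors Notch1, Notch2 and Notch3, the ligands Jag1 and Jag2, the target repressors Hes1, Hey1, Hey2 and Heyl, and the feedback gene Nrarp. They were listed by name and found by matching mouse symbols to Ensembl identifiers, and each matched 1 identifier. Fibroblasts of wild-type newborn mice were grown in DMEM with 10% fetal bovine serum and antibiotics in all 3 groups. The lipid-depleted TCM group received tumour cell-conditioned medium (TCM) that had been treated with Cleanascite, a reagent that removes lipids. The TCM group received the same kind of medium untreated, collected after 24 h on YUMM1.7 cells, a mouse melanoma line. The control group is labelled only as control, and the medium it received and the length of exposure are not given in the labels. RNA was sequenced from 3 libraries in each group. The labels do not say whether these came from separate animals or cultures, so p-values measure the spread between these libraries, which may be technical. Conditioned medium differs from the control in all that the tumour cells released or used up, and Cleanascite-treated control medium is not among the labelled groups, so removal of lipids and any other action of the reagent cannot be told apart.

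Notch receptors are membrane proteins that bind Jagged or Delta-like ligands on a neighbouring cell. Binding leads to cleavage of the receptor, first by an ADAM protease and then by gamma-secretase, and the released intracellular domain enters the nucleus and joins the DNA-binding protein RBPJ and a Mastermind coactivator. Hes1, Hey1, Hey2, Heyl and Nrarp are genes commonly switched on by this complex. The Hes and Hey proteins are transcriptional repressors, and Nrarp limits the pathway by acting on the receptor's intracellular domain. In connective tissue, Notch3 and the Hey genes are best known from pericytes and vascular smooth muscle, and Jag1 is a ligand made by many stromal cells.

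The recovered read totals were between 51015024 and 64965906 per library. Values are normalized counts, which are reads divided by a size factor of the library, and 16950 genes were tested, those that reached 10 in 3 or more of the 9 libraries. Transcripts of the 13 mitochondrial protein genes took 1.82% to 2.12% of counts in lipid-depleted TCM, 2.67% to 3.14% in TCM and 1.77% to 1.85% in control libraries. The fibroblast markers, 8 of 8 tested, summed to between 1470631 and 1521321 normalized counts in lipid-depleted TCM, between 1112862 and 1302044 in TCM and between 2243654 and 2309756 in control libraries. Most of this sum came from Col1a1, Col1a2 and Col3a1, with control means of 927289, 821765 and 455993. In TCM against control Col1a1, Col1a2 and Fap fell, Dcn, Lum, Pdgfra and Thy1 rose, and Col3a1 was not called. Of the 6 immune markers Ptprc, Adgre1 and Itgam stayed below 10 in every library, while Lyz2, Cd68 and Csf1r were detected. Lyz2 averaged 365 in lipid-depleted TCM, 127 in TCM and 204 in control libraries. The means in those groups were 52.8, 92.1 and 43.3 for Cd68 and 11.8, 16.5 and 78.9 for Csf1r.

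All 4 target repressors and the ligand Jag1 were lower in TCM than in control, and all 5 were higher in lipid-depleted TCM than in TCM without returning to the control level. The receptors fell less in TCM, and Notch1 was lower still in lipid-depleted TCM. In TCM against control, 9 of the 10 genes fell and Jag2 did not pass the test. Calls in that comparison were common, since 31.0% of all genes tested fell, 29.5% rose and 60.5% changed in either direction (limma, Benjamini-Hochberg adjusted p below 0.05). A fall of at least 2-fold was rarer, at 8.24% of all genes, and 6 of the 10 showed one, while a rise of that size was found in 5.26% of all genes and in none of the 10. The libraries of TCM and control did not overlap for 9 of the 10, beside 63.9% of all genes. The median log2 change of the 10 was -1.39, against -0.0023 over all genes tested.

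In lipid-depleted TCM against TCM, 5 of the 10 genes rose, 1 fell and 4 did not pass the test. Over all genes tested, 45.2% changed, of which rises were 22.7% and falls 22.5% of the genes tested. Jag1, Hey1, Hey2 and Heyl rose at least 2-fold, as did 3.12% of all genes, and none of the 10 fell 2-fold, as 2.96% of all genes did. The libraries did not overlap for 6 of the 10, beside 52.4% of all genes. The median log2 change of the 10 genes was 0.36, against 0.0132 over all genes. In lipid-depleted TCM against control, 9 of the 10 fell, beside 30.6% of all genes, and 5 fell at least 2-fold, beside 7.90% of all genes. None of the 10 rose, whereas 29.4% of all genes did, 5.98% by at least 2-fold, and 60.0% changed in either direction. The libraries did not overlap for any of the 10, beside 71.2% of all genes. The median of the 10 was -0.75, against 0.0020 over all genes. The 3 comparisons share libraries and so are not independent of one another.

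Nrarp passed the expression filter only through its control libraries, so it had to be higher in control than elsewhere. Without it, 8 of 9 genes fell in TCM against control with a median log2 change of -1.10, 5 of 9 rose in lipid-depleted TCM against TCM with a median of 0.63, and 8 of 9 fell in lipid-depleted TCM against control with a median of -0.48. Of these 9 genes, 5 fell at least 2-fold in TCM against control, beside 8.24% of all genes. In lipid-depleted TCM against control 4 of the 9 did, beside 7.90%. The libraries did not overlap for 8 of the 9 in TCM against control, beside 63.9% of all genes. They did not overlap for any of the 9 in lipid-depleted TCM against control, beside 71.2%. For single genes, an exact two-sided permutation test of 3 libraries against 3 cannot give a p below 0.1, and it gave 0.1 wherever the groups' libraries lay apart. When totals were made equal across libraries, the median log2 change of all genes moved up by 0.16 in TCM against control and by 0.15 in lipid-depleted TCM against control. Rises then made up 66.3% of all calls in TCM against control in place of 48.7%, and 65.6% in lipid-depleted TCM against control in place of 49.0%.

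**Figure D1:**
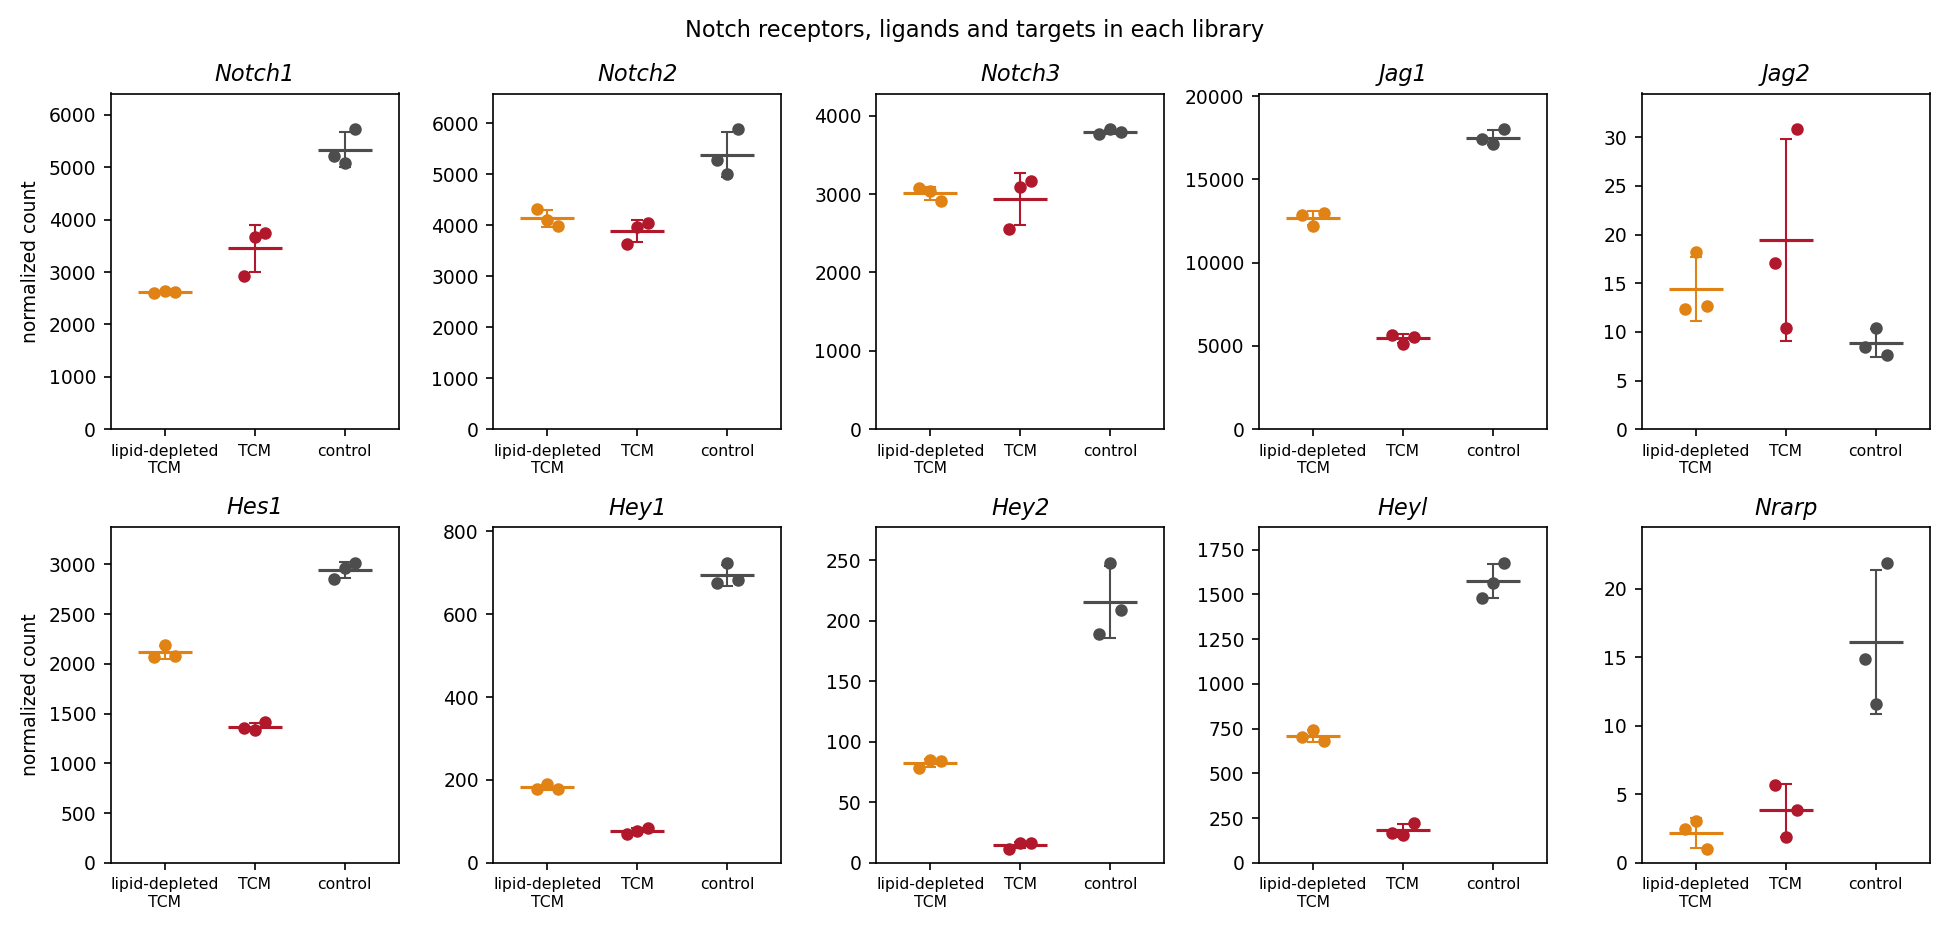
Normalized count of each of the 10 genes (vertical axes, each starting at 0) in each library, with lipid-depleted TCM, TCM and control side by side; points are libraries, long bars are means and error bars are SD (n = 3). Hey1, Hey2 and Heyl have 3 separate levels with TCM lowest and control highest, whereas Notch1 is lowest in lipid-depleted TCM, at a mean of 2618, against 3453 in TCM and 5337 in control.

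Notch1, the founding receptor of the mammalian family, lies on the minus strand of chromosome 2 (GRCm38, chr2:26457903-26516663, ENSMUSG00000026923.15). It had 2596, 2634 and 2624 normalized counts in the lipid-depleted TCM libraries, 2933, 3678 and 3750 in the TCM libraries and 5211, 5080 and 5720 in the control libraries. No library of 1 group reached into the range of another, and lipid-depleted TCM was the lowest group. Notch1 changed by a log2 value of -0.63 (SE 0.08, limma adjusted p = 2.008e-05) in TCM against control and -1.03 (SE 0.08, adjusted p = 2.263e-07) in lipid-depleted TCM against control. Between the conditioned media, Notch1 was lower in lipid-depleted TCM by a log2 change of -0.39 (SE 0.08, limma adjusted p = 0.001707). None of the other 9 genes was called lower in lipid-depleted TCM than in TCM. Lipid-depleted TCM kept 49.1% of the control mean and TCM kept 64.7%.

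Notch2, a receptor with wide expression in connective tissue, lies on the plus strand of chromosome 3 (chr3:98013527-98150361, ENSMUSG00000027878.11). It averaged 4134 ± 163 in lipid-depleted TCM, 3882 ± 219 in TCM and 5386 ± 448 in control libraries (normalized counts, SD, n = 3 each). Every library of either conditioned medium was below every control library, from 3991.97 to 4311.45 in lipid-depleted TCM and from 3632.41 to 4039.82 in TCM, against a lowest control library at 5003.7. The fall was 1.39-fold in TCM against control (log2 change -0.47, SE 0.06, limma adjusted p = 3.085e-05) and 1.30-fold in lipid-depleted TCM against control (log2 change -0.38, SE 0.06, adjusted p = 0.0001917). Between lipid-depleted TCM and TCM the libraries overlapped, and the log2 difference of 0.09 had a 95% interval from -0.05 to 0.23 and a limma adjusted p of 0.2619.

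Notch3, the receptor best known from mural cells of small vessels, lies on the minus strand of chromosome 17 (chr17:32120820-32166852, ENSMUSG00000038146.8). Its normalized counts were 3079, 3033 and 2914 in lipid-depleted TCM, 2553, 3085 and 3163 in TCM and 3768, 3824 and 3794 in control libraries. The control libraries lay close together and above all others, and the libraries of lipid-depleted TCM lay inside the range of TCM. Notch3 fell 1.30-fold in TCM against control (log2 change -0.38, SE 0.07, limma adjusted p = 0.0004162) and 1.26-fold in lipid-depleted TCM against control (log2 change -0.34, SE 0.07, adjusted p = 0.001027). The log2 difference between lipid-depleted TCM and TCM was 0.04, with a 95% interval from -0.11 to 0.19 and a limma adjusted p of 0.6499. The interval leaves room for a difference of that size in either direction but not for one like that of Jag1 or the Hey genes.

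The first TCM library was the lowest of its group for all 3 receptors. Without it the log2 change in TCM against control was -0.52 for Notch1, -0.42 for Notch2 and -0.28 for Notch3, and that of Notch1 in lipid-depleted TCM against TCM was -0.50, all still called by limma. With libraries scaled to the same total, the change in TCM against control was -0.31 for Notch2 and -0.22 for Notch3, and in lipid-depleted TCM against control it was -0.23 and -0.19 for those genes, again all still called. Exons of Notch1, Notch2, Notch3 and Nrarp overlap exons of other annotated genes, and the strand setting of the counting is not given in the sources used here, so part of their counts may belong to those neighbours. The exons of the other 6 genes overlap no other gene in the annotation.

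Jag1, the more abundant of the ligand genes, lies on the minus strand of chromosome 2 (chr2:137081456-137116644, ENSMUSG00000027276.7). It had 12835, 12209 and 12990 normalized counts in lipid-depleted TCM, 5674, 5138 and 5561 in TCM and 17399, 17124 and 17992 in control libraries. The groups were far apart relative to their spread, with SDs of 413, 283 and 444 around means of 12678, 5458 and 17505. Jag1 fell 3.21-fold in TCM against control (log2 change -1.68, SE 0.05, limma adjusted p = 1.352e-11) and rose 2.32-fold in lipid-depleted TCM against TCM (log2 change 1.22, SE 0.05, adjusted p = 1.336e-09). It was still 1.38-fold lower in lipid-depleted TCM than in control (log2 change -0.47, SE 0.05, limma adjusted p = 2.231e-06). Lipid-depleted TCM held 72.4% of the control mean and TCM held 31.2%.

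Jag2, the second Jagged ligand, lies on the minus strand of chromosome 12 (chr12:112907819-112929776, ENSMUSG00000002799.6) and was near the detection limit. Its normalized counts were 12.4, 18.2 and 12.7 in lipid-depleted TCM, 17.1, 10.4 and 30.8 in TCM and 8.50, 10.4 and 7.66 in control libraries, from 46, 61 and 24 reads in the 3 groups. TCM and control overlapped and TCM was the most spread group, while the lipid-depleted TCM libraries all lay above the control libraries. The log2 difference in TCM against control was 0.94 with a 95% interval from 0.10 to 1.77, and its limma adjusted p of 0.05058 missed the threshold. With the second TCM library left out the difference was 1.29 and passed (limma adjusted p = 0.00961), without the third it was 0.55, and over all alternatives the adjusted p ran from 0.00961 to 0.227. The log2 difference was 0.64 in lipid-depleted TCM against control (limma adjusted p = 0.1704) and -0.30 in lipid-depleted TCM against TCM (adjusted p = 0.5596), neither called.

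Among the targets, Hes1, a repressor expressed in many cell types and under the control of other pathways as well as Notch, changed least of the 4 repressors. The gene lies on the plus strand of chromosome 16 (chr16:30064384-30067796, ENSMUSG00000022528.8). It had 2073, 2188 and 2080 normalized counts in lipid-depleted TCM, 1358, 1339 and 1410 in TCM and 2849, 2962 and 3013 in control libraries. The 3 groups did not overlap and TCM was lowest. Hes1 fell 2.15-fold in TCM against control (log2 change -1.10, SE 0.05, limma adjusted p = 8.731e-10), was 1.54-fold higher in lipid-depleted TCM than in TCM (log2 change 0.63, SE 0.05, adjusted p = 5.062e-07) and was 1.39-fold lower in lipid-depleted TCM than in control (log2 change -0.48, SE 0.05, adjusted p = 2.347e-06).

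Hey1, a Hes-related repressor, lies on the minus strand of chromosome 3 (chr3:8663359-8667256, ENSMUSG00000040289.8). Its normalized counts were 179, 190 and 178 in lipid-depleted TCM, 70.3, 75.7 and 83.8 in TCM and 675, 724 and 682 in control libraries. The highest library of lipid-depleted TCM was far below the lowest control library, so that Hey1 stood closer to its TCM level than to its control level. It was 8.97-fold lower in TCM than in control (log2 change -3.17, SE 0.10, limma adjusted p = 4.186e-11), 2.36-fold higher in lipid-depleted TCM than in TCM (log2 change 1.24, SE 0.10, adjusted p = 6.858e-07) and 3.80-fold lower in lipid-depleted TCM than in control (log2 change -1.92, SE 0.10, adjusted p = 3.72e-09).

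Heyl, the third of the Hey repressors, lies on the plus strand of chromosome 4 (chr4:123233556-123249875, ENSMUSG00000032744.4) and had the highest level per kb of the Hey genes in control libraries. It had 703, 744 and 678 normalized counts in lipid-depleted TCM, 164, 157 and 224 in TCM and 1482, 1564 and 1675 in control libraries. The groups stood apart, with lipid-depleted TCM at 45.0% and TCM at 11.6% of the control mean. The change was 8.71-fold lower in TCM than in control (log2 change -3.12, SE 0.12, limma adjusted p = 1.931e-10), 3.93-fold higher in lipid-depleted TCM than in TCM (log2 change 1.97, SE 0.12, adjusted p = 4.144e-08) and 2.22-fold lower in lipid-depleted TCM than in control (log2 change -1.15, SE 0.12, adjusted p = 2.238e-06).

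Hey2, a repressor known for its role in heart and vessel development, lies on the minus strand of chromosome 10 (chr10:30832359-30842801, ENSMUSG00000019789.9). Its normalized counts were 78.6, 85.2 and 84.0 in lipid-depleted TCM, 11.4, 16.1 and 16.4 in TCM and 189, 248 and 209 in control libraries. These rest on 265 reads in lipid-depleted TCM, 46 in TCM and 583 in control, so the TCM level is the least precise, but the groups were well separated. Hey2 had the largest fall of the 10 genes in TCM against control, 13.9-fold (log2 change -3.80, SE 0.18, limma adjusted p = 1.811e-09), and the largest rise in lipid-depleted TCM against TCM, 5.41-fold (log2 change 2.44, SE 0.18, adjusted p = 3.414e-07). In lipid-depleted TCM against control it was 2.57-fold lower (log2 change -1.36, SE 0.18, adjusted p = 2.606e-05).

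RBPJ recognises the core TGGGAA, which reads TTCCCA on the other strand, and the longer form GTGGGAA contains it. Both strands of the 250 bases before the RefSeq start were searched in RefSeq promoters (GRCm38.p6), which held Notch1, Notch2, Notch3, Jag1, Jag2, Hey2 and Nrarp, 7 of the 10 genes. Of these 7 promoters, that of Hey2, the gene with the largest fall in TCM, held a match, and it also fitted GTGGGAA. Hes1, Hey1 and Heyl had no promoter in that set, so Hey2 was the only target repressor searched and cannot be compared with the others. Of all 32851 promoters in that table, 7094 or 21.6% held the core and 1779 or 5.42% the longer form, so a match is not rare. The stretch is shown because Hey2 differed most between the conditioned media. It covers chr10:30842802-30843033 on the minus strand, 5′ to 3′, with the core in capitals, and ends just before the GENCODE start, which lies 18 bases upstream of the RefSeq start. The core starts 189 bases before the GENCODE start and 207 bases before the RefSeq start, and it reads TGGGAA on the strand opposite to the gene.
Hey2 promoter: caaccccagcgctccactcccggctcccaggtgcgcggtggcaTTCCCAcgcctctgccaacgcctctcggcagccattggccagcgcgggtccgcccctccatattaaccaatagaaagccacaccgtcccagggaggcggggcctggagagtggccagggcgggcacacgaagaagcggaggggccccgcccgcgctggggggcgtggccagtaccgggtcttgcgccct
A match is a description of the letters and says nothing of binding, and the absence of one covers only the window searched.

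Nrarp, the Notch-regulated ankyrin repeat gene, lies on the plus strand of chromosome 2 (chr2:25180758-25183339, ENSMUSG00000078202.3) and was close to the detection limit outside the control libraries. Its normalized counts were 2.48, 3.04 and 0.977 in lipid-depleted TCM, 5.70, 1.89 and 3.85 in TCM and 14.9, 11.6 and 21.9 in control libraries, from 7, 12 and 44 reads in the 3 groups. Every control library lay above every other library, and the conditioned media overlapped. Nrarp changed by a log2 value of -1.87 (SE 0.50, limma adjusted p = 0.006048) in TCM against control and -2.45 (SE 0.50, adjusted p = 0.0009671) in lipid-depleted TCM against control. These log2 values are on the scale of the value plus 1, which understates changes of so low a gene, and with 5 added the change in lipid-depleted TCM against control was -1.54, still called. Between lipid-depleted TCM and TCM the difference was -0.59, with a 95% interval from -1.67 to 0.50 and a limma adjusted p of 0.3692, an interval that lies below the rise of each Hey gene.

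**Figure D2:**
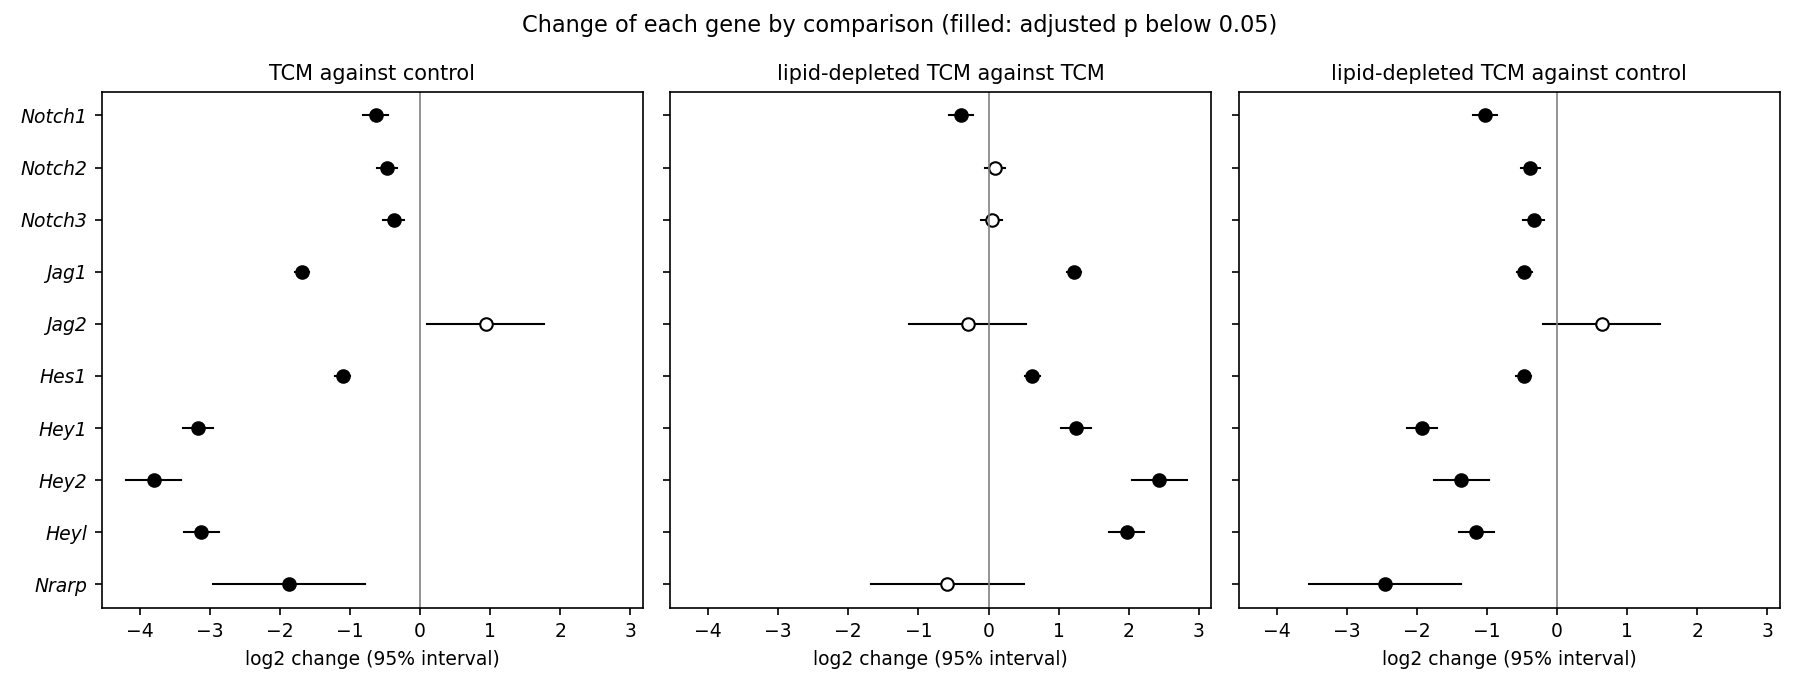
Log2 change of each gene (horizontal axis) with a panel each for TCM against control (left), lipid-depleted TCM set against TCM (middle) and the same group set against control (right); points are limma estimates over 3 libraries a group, bars are 95% intervals and filled points have an adjusted p below 0.05. Jag1, Hes1, Hey1, Hey2 and Heyl lie left of 0 in the first panel and right of 0 in the second, Notch1 lies left in all panels, and Jag2 is open in all panels.

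Levels of different genes were set side by side only per kb of exon, as normalized counts divided by the length of all annotated exons of the gene. In control libraries Jag1 was highest at 3004 ± 76.1 per kb, followed by Hes1 at 1444 ± 41.1. Notch2 at 499.5 ± 41.5 and Notch3 at 469 ± 3.43 came next and overlapped, so their order is not resolved. Notch1 followed at 375 ± 23.7, Heyl at 308 ± 19.0, Hey1 at 212 ± 8.09, Hey2 at 46.9 ± 6.50 and Nrarp at 6.24 ± 2.04, with Jag2 lowest at 1.27 ± 0.204 (SD, n = 3).

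In TCM the upper part of the order was alike, with Jag1 at 937 ± 48.5 and Hes1 at 672 ± 18.3 per kb above the overlapping Notch3 and Notch2, but Heyl at 35.6 ± 7.2 and Hey1 at 23.5 ± 2.07 stood well below Notch1 at 243 ± 31.8. In lipid-depleted TCM, Heyl at 139 ± 6.54 was closer to Notch1 at 184 ± 1.37, and Hey1 was at 55.8 ± 2.01 and Hey2 at 18.0 ± 0.76 per kb. Below Hey2 the levels in TCM overlapped from gene to gene, and Hey2 itself at 3.18 ± 0.61 overlapped Jag2 at 2.79 ± 1.49.

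As a share of the summed per-kb level of Notch1 to Notch4, Notch1 made up 19.6% ± 0.61 in lipid-depleted TCM, 25.0% ± 0.91 in TCM and 27.8% ± 0.42 in control libraries (SD, n = 3 each). The share of Notch3 was 39.5% ± 0.26 in lipid-depleted TCM, 37.5% ± 0.64 in TCM and 34.9% ± 1.72 in control libraries. The share of Notch2 was 40.7% ± 0.61, 37.3% ± 1.62 and 37.1% ± 1.31 in those groups. The order of the receptors depends on the length used. Notch1 has 14.232 kb of annotated exon but a longest transcript of 9.488 kb, and with the longest transcript its mean in control was 562 ± 35.6 per kb, beside 513 ± 42.6 for Notch2 and 473 ± 3.46 for Notch3. The control libraries of Notch1 and Notch2 then overlapped, so the order of these receptors is not resolved on that scale.

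**Figure D3:**
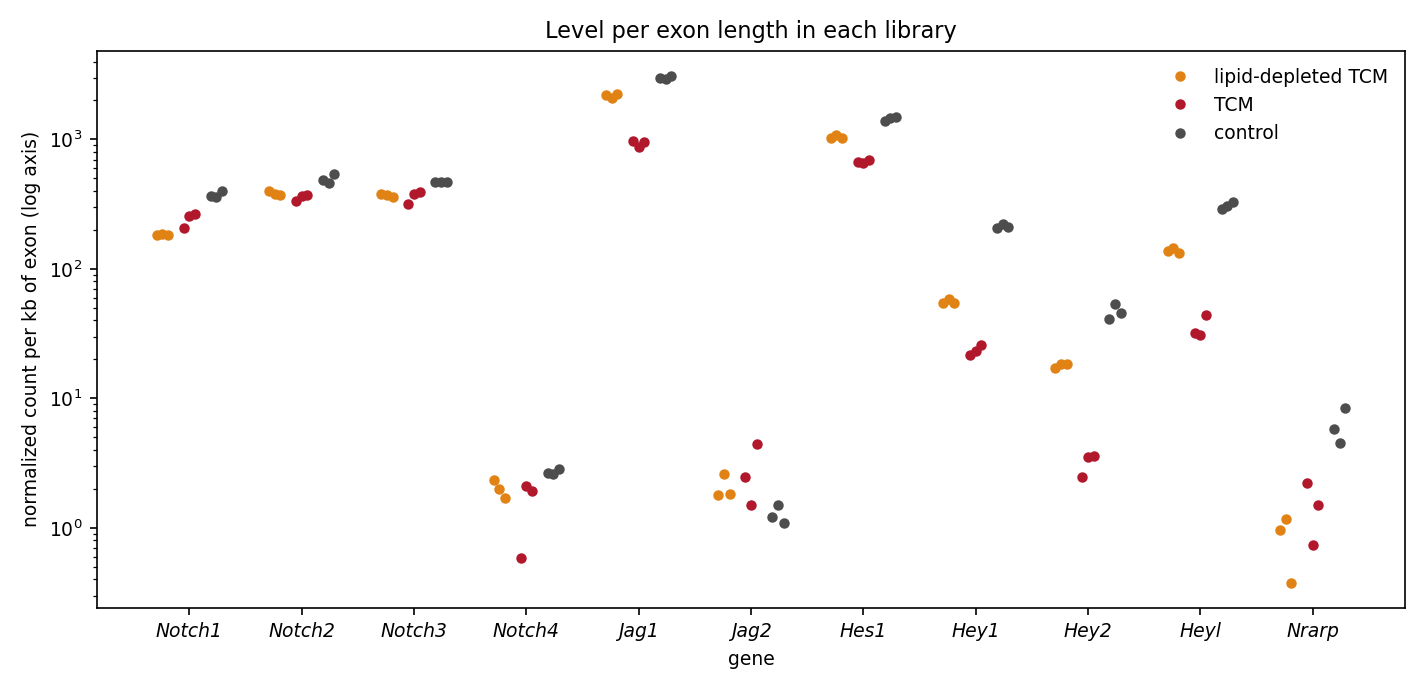
Normalized count per kb of exon (vertical log axis) of the 10 genes and Notch4 in each library; points are libraries, in the order lipid-depleted TCM, TCM and control for each gene. Jag1 and Hes1 lie above the receptors in every group, and Notch4, Jag2 and Nrarp lie lowest in lipid-depleted TCM and control, while in TCM Hey2 reaches down to their level.

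A list of 56 other genes of the pathway was counted in the same test, and 48 of them had enough reads. The untested 8 were the ligands Dll3 and Dll4, the glycosyltransferase Mfng, the ubiquitin ligase Dtx1 and the repressors Hes2, Hes3, Hes5 and Hes7. In TCM against control 12 rose, 19 fell and 17 did not pass, with a median log2 change of -0.11, so that 64.6% of the list was called, near the 60.5% of all genes. In lipid-depleted TCM against TCM 13 rose, 11 fell and 24 did not pass, with a median of 0.02, so that 24 of 48 were called, beside 45.2% of all genes. In lipid-depleted TCM against control 17 rose, 19 fell and 12 did not pass, with a median of -0.12, and 75.0% was called, beside 60.0% of all genes. With libraries scaled to the same total, 22 rose and 11 fell in TCM against control, and 19 rose and 13 fell in lipid-depleted TCM against control. Rises were then 66.7% of the list's calls in TCM against control, beside 66.3% over all genes. Without the first TCM library the split in TCM against control was 17 and 17.

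Rbpj, the DNA-binding partner of the receptor's intracellular domain, moved opposite to the targets. It had 16814, 17330 and 16740 normalized counts in lipid-depleted TCM, 22907, 22337 and 21963 in TCM and 8288, 8273 and 8577 in control libraries. The control libraries were lowest and TCM was highest, with no overlap. The log2 change was 1.42 in TCM against control (limma adjusted p = 9.656e-12), -0.40 in lipid-depleted TCM against TCM (adjusted p = 3.07e-06) and, against control, 1.02 in lipid-depleted TCM (adjusted p = 1.878e-10). The other 6 nuclear complex genes were mixed in TCM against control, where 1 rose, 2 fell and 3 did not pass. In lipid-depleted TCM against TCM, 2 of the 6 rose, 3 fell and 1 did not pass. Over all genes tested, 60.5% and 45.2% were called in those comparisons. Maml3, a Mastermind coactivator, averaged 89.0 in lipid-depleted TCM and 153 in TCM, a log2 change of -0.82 (limma adjusted p = 0.004399). Maml2, of the same family, went the other way, with means of 3039 in lipid-depleted TCM, 2051 in TCM and 3295 in control libraries. Its log2 change was -0.68 in TCM against control (limma adjusted p = 1.855e-07) and 0.57 in lipid-depleted TCM against TCM (adjusted p = 2.63e-06). Maml1 was called in neither of these comparisons.

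Lfng, the Fringe enzyme that adds a sugar to Notch receptors and alters their response to ligands, was low in both conditioned media. It had 78.6, 65.9 and 102 normalized counts in lipid-depleted TCM, 74.2, 79.5 and 124 in TCM and 666, 723 and 656 in control libraries. The conditioned media overlapped, and each was far below control, by a log2 change of -3.06 for lipid-depleted TCM (limma adjusted p = 2.654e-08) and of -2.90 for TCM (limma adjusted p = 4.759e-08). The promoter of Lfng held the core at 2 sites in the 250 bases searched, and the sites are shown with 10 bases to either side because Lfng, like Hey2, fell in TCM. The core is in capitals, the first site (chr5:140607196-140607221, GRCm38.p6) has it on the opposite strand and the second (chr5:140607223-140607248) on the strand of the gene, where it also fits GTGGGAA, and Hey2 is given for comparison (chr10:30842975-30843000).
Lfng site 1: agctgggtggTTCCCAgccccttgtc
Lfng site 2: gtatcccacgTGGGAAggagagatct
Hey2 site: cgcggtggcaTTCCCAcgcctctgcc
The promoters of Rbpj, which rose, also held the core. Those of Notch1, Notch2, Notch3, Jag1 and Nrarp, which fell in TCM against control, held none in the window searched. Lfng and Rbpj were the only genes of the pathway list searched, and they were picked with their changes known. Matches chosen in this way cannot show whether the core goes with a fall.

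Of the ligand-like genes, Dlk1, a non-canonical ligand that can dampen Notch signalling, averaged 1316 in lipid-depleted TCM, 739 in TCM and 2312 in control libraries. Its log2 change was -1.69 in TCM against control (limma adjusted p = 1.799e-06) and 0.87 in lipid-depleted TCM against TCM (adjusted p = 0.0009128). Dlk2, its relative, had means of 3.92 in lipid-depleted TCM, 2.54 in TCM and 24.9 in control libraries, passed the filter through control alone, and fell by a log2 change of -2.44 in lipid-depleted TCM (limma adjusted p = 0.0004691) and -2.97 in TCM (limma adjusted p = 9.728e-05), each against control. Dll1, a Delta-like ligand, averaged 135 in lipid-depleted TCM and 63.9 in TCM and rose by a log2 change of 1.07 (limma adjusted p = 0.0004437). All 3 tested ligand and ligand-like genes fell in TCM against control, beside 31.0% of all genes, and the filter required Dlk2 to be higher in control.

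Of the genes for receptor turnover, Dtx4, a Deltex-family ubiquitin ligase, averaged 885 in lipid-depleted TCM, 378 in TCM and 259 in control libraries. It was the gene of the list that rose most in lipid-depleted TCM against TCM, by a log2 change of 1.23 (limma adjusted p = 3.208e-07). Dtx3l, a ubiquitin ligase of the same family, rose by 0.85 in TCM against control (limma adjusted p = 1.164e-05), with means of 1271 in TCM and 704 in control libraries. Neurl1b, a ubiquitin ligase that acts on ligands, averaged 48.3 in lipid-depleted TCM, 71.9 in TCM and 105 in control libraries and fell by a log2 change of -1.11 in lipid-depleted TCM against control (adjusted p = 0.0001756). Hes6, a member of the Hes family that is not a usual Notch target, averaged 711 in lipid-depleted TCM and 487 in control libraries and rose by 0.54 (adjusted p = 0.0004907).

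Of the gamma-secretase genes, 1 of the 7 rose and 4 fell in TCM against control, while 4 rose and 1 fell in lipid-depleted TCM against TCM, beside 60.5% of all genes called in TCM against control and 45.2% in lipid-depleted TCM against TCM. Of the other proteases, 1 of 3 rose and 1 fell in TCM against control. No gene of either group changed by 2-fold in any of the 3 comparisons.

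**Figure D4:**
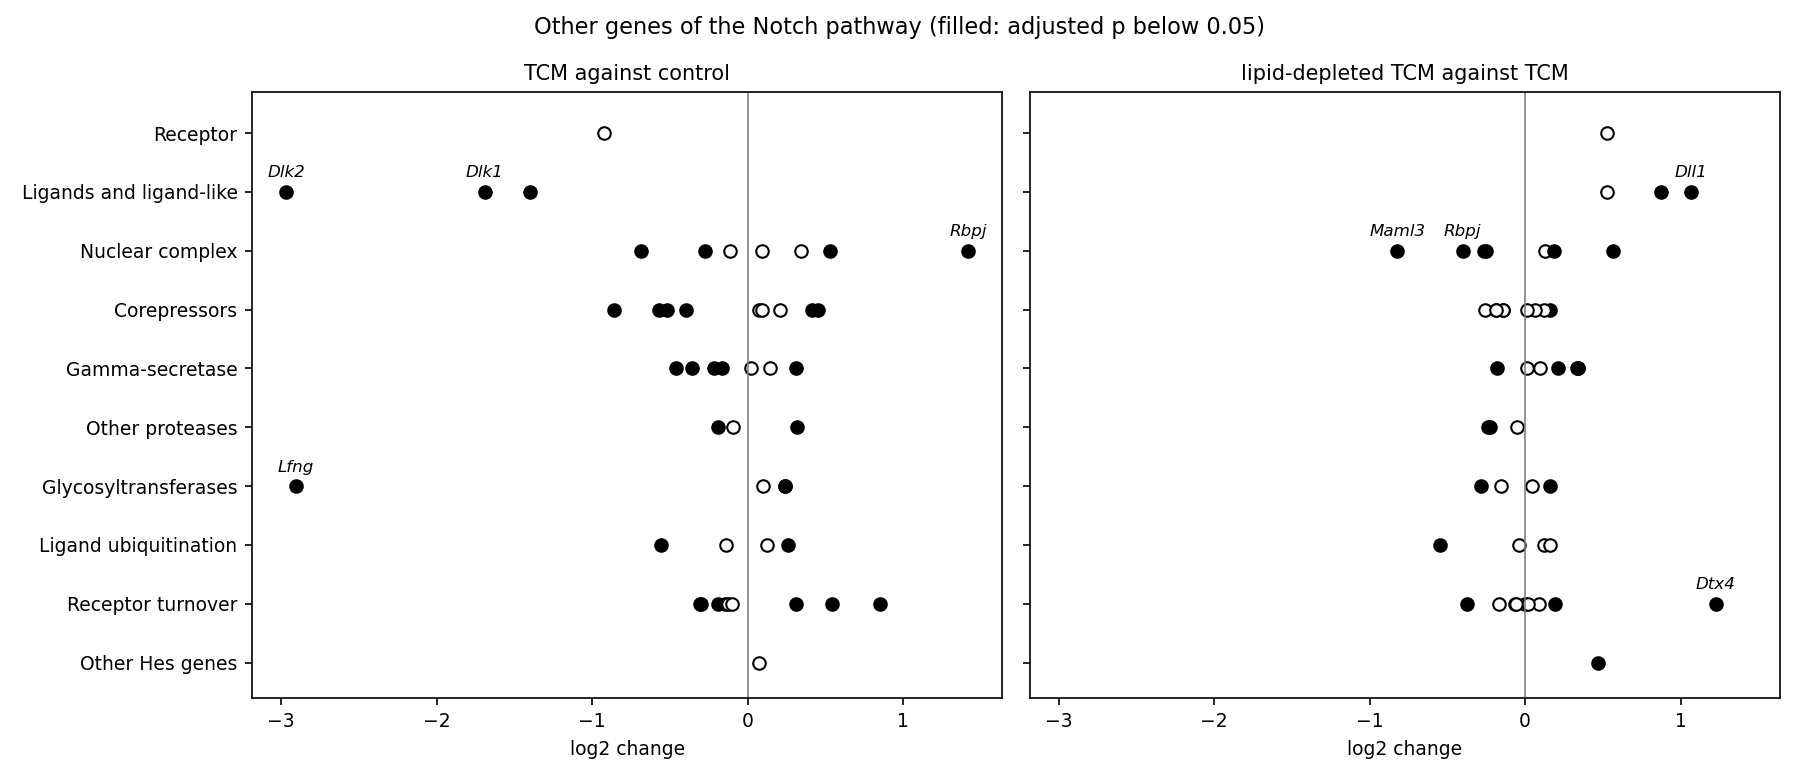
Log2 change (horizontal axis) of 48 other genes of the Notch pathway by group (rows) in TCM against control and lipid-depleted TCM against TCM; each point is a gene, and filled points have an adjusted p below 0.05 (limma). Dlk2, Lfng and Dlk1 lie farthest left and Rbpj farthest right in the first panel, and Dtx4 and Dll1 lie farthest right in the second.

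Mural cells use Notch3 and the Hey genes, and some of their markers moved with the targets while others did not. Of 10 tested markers, 7 fell and 2 rose in TCM against control, 8 rose and none fell in lipid-depleted TCM against TCM, and 7 fell and 3 rose in lipid-depleted TCM against control. Over all genes tested, 60.5%, 45.2% and 60.0% changed in those comparisons. Rgs5 averaged 101 in lipid-depleted TCM, 33.3 in TCM and 802.5 in control libraries, and Myh11, the smooth muscle myosin, 1017, 407 and 7966 in those groups. Ndufa4l2 rose by a log2 change of 1.57 in lipid-depleted TCM and 0.92 in TCM, each against control, and Des by 0.74 in lipid-depleted TCM and 0.50 in TCM. Pdgfrb rose by 0.44 in lipid-depleted TCM against control, and its log2 difference in TCM against control was 0.04 (limma adjusted p = 0.39). The summed level of the markers was between 84726 and 87986 in lipid-depleted TCM, between 63354 and 66648 in TCM and between 84043 and 85200 in control libraries, most of it from Pdgfrb, which fibroblasts also express. Higd1b and Vtn were at 0 in every library. The part of these markers in the results was not tested, and in bulk RNA fewer cells of a type and less RNA per cell cannot be told apart.

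Endothelial cells also use the pathway, and 5 of their 8 markers were tested, with 1 higher and 2 lower in TCM against control, 2 higher in lipid-depleted TCM against TCM and 1 higher in lipid-depleted TCM against control. Their summed level was between 508 and 544 in lipid-depleted TCM, between 437 and 477 in TCM and between 328 and 379 in control libraries, and Emcn and Cldn5 stayed below 10. The largest part of this sum was Egfl7, with means of 306 in lipid-depleted TCM, 257 in TCM and 131 in control libraries. Egfl7 was the marker that rose in TCM against control, and Kdr and Tek were those that fell. Keratinocyte markers summed to between 50.5 and 67.4 in lipid-depleted TCM, between 80.8 and 93.7 in TCM and between 85.0 and 108 in control libraries. Schwann cell markers summed to between 259 and 298 in lipid-depleted TCM, between 242 and 268 in TCM and between 216 and 265 in control libraries. Of the 3 tested immune markers, 1 rose and 2 fell in TCM against control, and 1 rose and 1 fell in either comparison of lipid-depleted TCM. Their sum was between 422 and 440 in lipid-depleted TCM, between 222 and 264 in TCM and between 286 and 371 in control libraries. Of the 6 tested melanocyte markers, 2 rose and 1 fell in TCM against control, 2 rose and 1 fell in lipid-depleted TCM against TCM and 2 rose in lipid-depleted TCM against control. Among them Mlana had 29.8, 37.5 and 29.3 normalized counts in lipid-depleted TCM, 0.951, 2.84 and 6.74 in TCM and 5.31, 2.32 and 4.37 in control libraries. Mlana passed the filter only through its lipid-depleted TCM libraries, so it had to be higher there than elsewhere. Its log2 change was 3.09 in lipid-depleted TCM against TCM (limma adjusted p = 0.000297) and 2.77 against control (limma adjusted p = 0.000395). In lipid-depleted TCM against TCM, Mitf also rose, by 0.24 (limma adjusted p = 0.01498). Sox10 fell by a log2 change of -0.62 (limma adjusted p = 0.008403), and Dct, Tyrp1 and Pmel were not called. The melanocyte markers had a sum between 1002 and 1121 in lipid-depleted TCM, between 880 and 955 in TCM and between 757 and 863 in control libraries. Most of it came from Mitf, with means of 716 in lipid-depleted TCM, 604 in TCM and 511 in control libraries. Dct and Tyrp1 were called in no comparison, and Pmel only in TCM against control, where it fell. The fibroblast markers had 4 higher and 3 lower in TCM against control, and 4 higher and 2 lower in lipid-depleted TCM against TCM. All these counts stand beside 60.5% of all genes called in TCM against control. The share was 45.2% in lipid-depleted TCM against TCM and 60.0% in lipid-depleted TCM against control.

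The genes whose pattern over the 9 libraries was nearest to each of the 10 were found by the root mean square difference of log2 values centred on each gene's mean, among 12026 genes. For Jag1 the nearest were Nedd9 and Fzd5, at 0.07 and 0.08. Hes1 was nearest to Col1a2, a chain of type I collagen, at 0.05, and to Apba1 at 0.06. Hey1 was nearest to Lrrc17 at 0.09 and Galnt18 at 0.12. The nearest genes to Heyl were Ccn3 and Col8a2, both at 0.22, and those to Hey2 were Npr3 at 0.25 and Wscd2 at 0.26. Notch1 was nearest to Lrrc59 and Map1b, Notch2 to Myo9a and Exoc8, and Notch3 to Ap1m1 and Bsg, all between 0.03 and 0.07. Jag2 and Nrarp, with few reads, had no neighbour nearer than 0.32 for Jag2 and 0.37 for Nrarp. Likeness here describes these 9 libraries, which share 3 groups, and carries no test.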

How the data were processed

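RNA of 9 fibroblast libraries was made into stranded Illumina TruSeq libraries, per the labels' protocols. Reads were trimmed with Trim Galore 0.6.6 and aligned to mm10 with STAR 2.7.9a, and FastQC and DESeq2 were used, per the submitters' processing notes; which tool counted the reads, with which strand setting and annotation, is not given in the sources used here. The authors deposited normalized counts, a depth-scaled signal per gene: within each library every value was a whole multiple of the value of 1 read, to a tolerance of 0.01, so the reads could be recovered. Symbols, exon lengths and positions came from GENCODE annotation of GRCm38, and 55141 of 55401 identifiers matched without version. Genes with at least 10 in at least 3 libraries were tested on log2(value + 1) with limma 3.58.1 (trend, 3 group means, 9 libraries), with Benjamini-Hochberg adjustment over 16950 genes and a threshold of 0.05. The alternatives tried were a pseudocount of 0.5 or 5, a filter of 50 or none at all, other scalings, the compared groups alone, a replicate block, edgeR 4.0.16 and DESeq2 1.42.0 on the recovered reads, a threshold of 0.01 and each library left out; a level per kb from the longest transcript was added after seeing the data. Libraries of 1 group differed by more than counting noise, so none was taken for a second copy of another, which does not show that they came from separate cultures. The named genes were all 10 members, the 3 largest called rises and falls per comparison in the pathway list whose libraries did not overlap, and the 2 genes nearest in pattern to each member; the remaining pathway and marker values were chosen after they were seen. Members and lists were chosen with earlier results of these data known. Intervals and read numbers cover counting error and spread between these libraries only.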

Additional observations from a re-analysis of the deposited data

How the results depend on the processing

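Of 594 recomputed changes of the 10 genes, over 30 changes and 20 alternatives, 587 kept their direction and their side of the threshold, and none lost its call. With no filter, a filter of 50, the compared groups alone, a replicate block or a threshold of 0.01, the log2 change cannot differ from the main fit. The same holds when the library left out belongs to the group not compared. In those alternatives only the call could change. Differences that were not called changed sign in 2 cases, both in lipid-depleted TCM against TCM: with 1 library left out, the log2 difference of Notch3 ran from -0.0546 (without TCM replicate 1) to 0.0998, and that of Jag2 from -0.6558 to 0.0840 (without TCM replicate 3). The other 5 all concern Jag2 in TCM against control, which passed with a pseudocount of 5 (adjusted p = 0.0473), the same library total (0.0265), TMM (0.0487), edgeR (0.0364) and without the second TCM library (0.00961), all limma except edgeR. The filter at 50 removed Jag2 and Nrarp. The genes called numbered 8 to 10 in TCM against control, 6 in lipid-depleted TCM against TCM and 8 to 9 in lipid-depleted TCM against control. With a replicate block, 9, 6 and 9 of the 10 genes were called in these comparisons, as without it. Deviations of same-numbered libraries from their group means had correlations between -0.025 and 0.027. No shared deviation was seen, but the labels do not say whether the numbers mark a shared animal, culture or day. With the longest transcript as length, the Notch3 share was 35.8% in lipid-depleted TCM, 33.2% in TCM and 30.6% in control. Low read numbers limit Jag2 and Nrarp most.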
